A study of Mus musculus with 22 samples.

Results

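The genes described here are the globin genes of mouse red cells and 2 further red cell genes, read in RNA of whole ovaries. They were chosen by gene name, and all 9 are rows of the deposited expression table, which holds 34745 genes. Hbb-y and Hbb-bh1 encode the beta-like chains of embryonic hemoglobin, and Hba-x encodes its alpha-like chain (zeta globin). Hbb-bs and Hbb-bt encode the adult beta chain, and Hba-a1 and Hba-a2 the adult alpha chain. Slc4a1 encodes band 3, the anion exchanger of the red cell membrane. Hemgn encodes hemogen, a nuclear protein of developing blood cells. The study sequenced total RNA from whole ovaries of wild-type CD1 mice, an outbred strain, in 22 libraries, a pair for each of 11 ages. These ages were embryonic day 13 (E13), 15 (E15) and 17 (E17), the day of birth (P0), days 3, 7, 14, 21 and 60 after birth (P3 to P60), 1 year (Y1) and 2 years (Y2). No group was treated, sorted or genetically altered. Separate animals, pools and repeat preparations of 1 sample are all possible sources of such a pair under the labels, so p-values measure the spread between these libraries, which may be technical. Levels are in FPKM, fragments scaled to transcript length and to sequencing depth.

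Mouse red cells come in waves. Primitive red cells from the yolk sac carry embryonic globins, and definitive red cells, made in the fetal liver and later in the bone marrow and spleen, carry adult globins. The replacement of one set by the other in the circulation is the globin switch. Red cell precursors express Slc4a1 and the enzymes of heme synthesis, and mature red cells have lost their nucleus and make no new RNA. The ovary makes no red cells, and globin RNA in a whole-ovary library is read here as the trace of blood held in the organ. Whether cells of the ovary itself add to it was not tested. In bulk RNA, fewer red cells and less globin RNA per red cell cannot be told apart.

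The beta-like genes lie in a row on the minus strand of chromosome 7 in the order Hbb-y, Hbb-bh1, Hbb-bs and Hbb-bt (mm10). Hbb-y spans chr7:103851749-103853216, and the starts of Hbb-bh1, Hbb-bs and Hbb-bt lie 10.1, 25.1 and 39.2 kb downstream of its start. The alpha-like genes lie on the plus strand of chromosome 11, where Hba-x spans chr11:32276400-32278116 and Hba-a1 and Hba-a2 start 7.11 and 20.1 kb downstream. Slc4a1 lies at chr11:102348824-102366203 and Hemgn at chr4:46393989-46413506, both on the minus strand. The first 60 coding bases of the globins are printed because they show which members a read can tell apart. Capitals mark bases that differ from Hbb-bs in the beta-like genes and from Hba-a1 in the alpha-like genes.
Hbb-y: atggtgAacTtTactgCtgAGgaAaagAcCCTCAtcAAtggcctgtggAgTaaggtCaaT
Hbb-bh1: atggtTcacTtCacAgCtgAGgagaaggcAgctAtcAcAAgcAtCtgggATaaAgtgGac
Hbb-bs: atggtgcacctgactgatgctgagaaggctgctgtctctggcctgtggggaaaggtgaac
Hba-x: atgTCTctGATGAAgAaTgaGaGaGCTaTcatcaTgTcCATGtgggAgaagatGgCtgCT
Hba-a1: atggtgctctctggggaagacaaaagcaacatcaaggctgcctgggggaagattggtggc

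Hbb-bt has the same 60 bases as Hbb-bs, and Hba-a2 the same as Hba-a1. Over the whole coding sequence Hbb-bs and Hbb-bt differed at 1 of 444 bases, and Hba-a1 and Hba-a2 at 1 of 429. Hbb-y was 74.3% identical to Hbb-bs, and Hba-x 62.0% identical to Hba-a1. Of all 50-base words in the annotated transcripts, 72.3% of those of Hba-a1, 89.3% of Hba-a2, 53.2% of Hbb-bs and 58.3% of Hbb-bt occurred also in another gene. None of the words of Hbb-y, Hba-x, Hbb-bh1, Slc4a1 or Hemgn did. The embryonic and adult globins are thus told apart by their reads, while the split of reads within each adult pair is uncertain.

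The 150 bases before the RefSeq start of 5 globin genes are shown because these genes move in opposite directions over the same ages (RefSeq, GRCm38.p6, gene strand). Capitals mark 4 short motifs, searched on both strands. CACCC is the core of the element bound by the erythroid factor KLF1, CCAAT and TATAA are general promoter elements, and GATA is the core of the site bound by GATA1.
Hbb-y: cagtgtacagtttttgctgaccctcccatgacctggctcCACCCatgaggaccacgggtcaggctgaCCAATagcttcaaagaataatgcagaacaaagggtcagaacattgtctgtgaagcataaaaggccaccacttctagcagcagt
Hbb-bs: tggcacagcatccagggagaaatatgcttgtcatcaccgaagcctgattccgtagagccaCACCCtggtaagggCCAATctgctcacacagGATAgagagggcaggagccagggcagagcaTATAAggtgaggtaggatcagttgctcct
Hbb-bt: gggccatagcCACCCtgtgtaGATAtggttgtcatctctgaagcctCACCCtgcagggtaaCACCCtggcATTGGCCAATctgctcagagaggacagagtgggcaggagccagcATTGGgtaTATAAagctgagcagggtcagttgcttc
Hba-x: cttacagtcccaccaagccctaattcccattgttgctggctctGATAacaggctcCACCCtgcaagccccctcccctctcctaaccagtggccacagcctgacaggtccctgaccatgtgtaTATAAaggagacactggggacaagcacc
Hba-a1: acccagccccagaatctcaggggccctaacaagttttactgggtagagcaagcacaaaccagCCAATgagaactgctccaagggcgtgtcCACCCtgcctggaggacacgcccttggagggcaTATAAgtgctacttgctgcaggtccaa

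The windows lie at chr7:103853208-103853357, chr7:103827929-103828078, chr7:103813924-103814073, chr11:32276450-32276599 and chr11:32283522-32283671. The gene positions given earlier are those of GENCODE, whose starts differ from the RefSeq starts. By GENCODE the windows of Hbb-bs, Hba-x and Hba-a1 lie inside the genes, and those of Hbb-y and Hbb-bt overlap them in part. A CACCC match was present in every one of the 5 windows, once in each except Hbb-bt, which held 3. A CCAAT match was present in all of them but Hba-x, and a TATAA match in all but Hbb-y. Among 32851 promoter windows of the same length, 37.4% held CACCC, 24.5% CCAAT, 35.7% GATA and 14.2% TATAA. The window of Hba-a2 had the same bases as that of Hba-a1, shifted by 3. A match is a description of these letters and not a mapped binding site.

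The libraries held an estimated 11480000 to 18140000 reads, from the smallest steps between low FPKM values. The 10 ovary markers summed to 222 FPKM or more in all 22 libraries, among them Amhr2, the receptor of anti-Müllerian hormone, at 19.9 to 80.6 FPKM. In E13 replicate 1, both E15 libraries and Y2 replicate 2, 1 of the 10 was listed at 0. The germ cell markers Dazl and Ddx4 averaged 0.618 and 0.823 FPKM at Y1, and 0.735 and 0.974 at Y2. The 9 genes together took up 1.43% of the FPKM total at most, in P0 replicate 2, and 0.00163% at least, in Y1 replicate 1. Libraries of one age stood apart from each other at E17 and above all at P0, in red cell and white cell genes alike. Their values are therefore given singly throughout. Fetal values carry fewer decimals than postnatal values, and the sources do not state whether both were quantified together. A difference between such runs cannot be told apart from age in the comparisons of P0 with E17 and of P60 with E13.

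Embryonic globin RNA was highest at E13 and close to 0 at E17. Hbb-y was at 843 and 829 FPKM at E13, 222 and 206 at E15, and 1.57 and 2.56 at E17. At P0 it was at 0.197 and 0.272 FPKM, which corresponds to about 1.91 and 2.87 reads. Each drop took the libraries out of the range of the age before. From P3 on, Hbb-y was listed at 0 in all but P3 replicate 2, at 0.0900 FPKM or about 0.954 reads, and P21 replicate 2, at 0.406 FPKM or about 3.83 reads. Hba-x was at 89.1 and 87.1 FPKM at E13, 21.7 and 26.2 at E15, and 0.867 and 0.573 at E17, and was listed at 0 in every library from P0 on. Hbb-bh1 was the scarcest, at 24.5 and 20.2 FPKM at E13 and 3.68 and 4.21 at E15. At E17 it was listed at 0 in replicate 1 and at 0.875 FPKM in replicate 2, and at 0 in every later library. Hbb-y exceeded Hbb-bh1 34.4- and 40.9-fold at E13 and 60.3- and 48.9-fold at E15. Where an embryonic globin was detected in both libraries of an age, these differed by at most 1.63-fold, the E17 ratio of Hbb-y.

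In the limma fit on log2(FPKM + 1), all 3 embryonic globins fell from E13 to E15, where 12.3% of all 16117 genes tested were called lower. The log2 change was -1.96 (SE 0.151, adjusted p = 8.78e-07) for Hbb-y, -1.84 for Hba-x (adjusted p = 3.63e-08) and -2.24 for Hbb-bh1 (adjusted p = 3.58e-06). Differences between the 3 genes in this fall were not tested. For Hbb-y and Hba-x the log2 change of the next step was larger. From E15 to E17, where 15.6% of all genes were called lower, the change was -6.15 for Hbb-y (SE 0.151, adjusted p = 8.26e-12), -3.86 for Hba-x and -1.85 for Hbb-bh1, both with adjusted p at or below 7.00e-06. The added 1 in the logarithm understates the fall of Hba-x and Hbb-bh1, whose E17 values lie under 1 FPKM. From E17 to P0, with 8.91% of all genes called lower, Hbb-y fell by 1.29 and Hba-x by 0.78 on the log2 scale (adjusted p = 7.52e-05 and 0.000167), and the change of Hbb-bh1 was -0.45 (95% interval -0.87 to -0.035, adjusted p = 0.133). All p-values of these 3 genes, at each step, rest on the spread pooled over all ages, most of which list the genes at or near 0. They therefore do not measure the spread at E13 to E17 alone. The calls from E13 to E15 and from E15 to E17 were kept when only the 2 ages compared were fitted. With E17 and P0 fitted alone the adjusted p was 0.0772 for Hbb-y and 0.0678 for Hba-x.

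**Figure D1:**
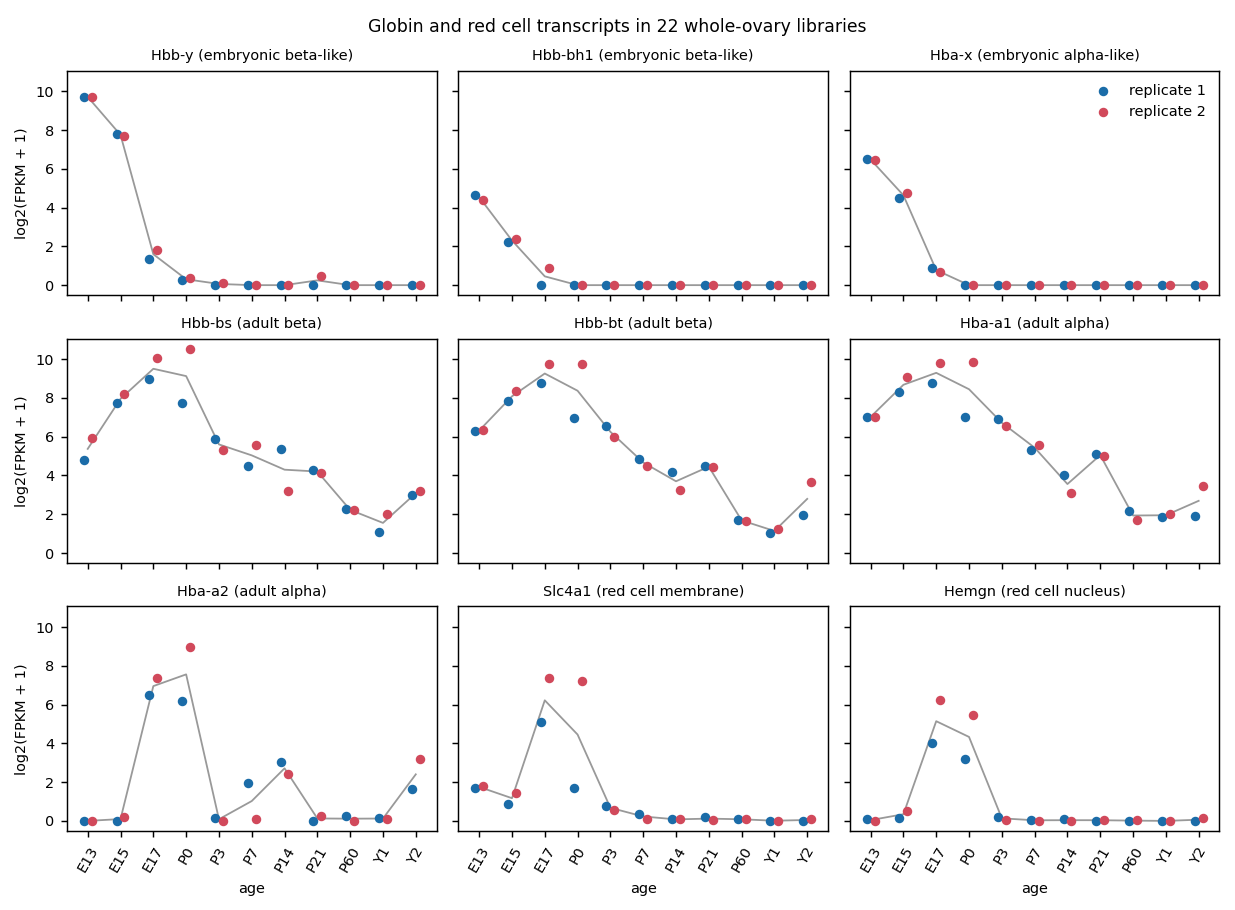
Level of each of the 9 genes as log2(FPKM + 1) against age, with 1 point per library (blue, replicate 1; red, replicate 2) and a grey line through the mean of the logarithms at each age. The embryonic globins in the top row lie at or near 0 from P0 on, each adult globin is highest in replicate 2 of E17 and P0, and Slc4a1 and Hemgn stand above 1 on this scale at E17 and P0 in both libraries, Slc4a1 also at E13 and in 1 library of E15.

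Adult globins other than Hba-a2 were already present at E13 and had higher levels at E15 and E17. Hba-a1 was at 130.4 and 127 FPKM at E13, 309.7 and 538 at E15, and 434 and 905 at E17. Hbb-bt was at 77.5 and 79.7 FPKM at E13, 225 and 324 at E15, and 432 and 866 at E17. Hbb-bs was at 26.8 and 60.6 FPKM at E13, 211.1 and 289 at E15, and 494 and 1064 at E17. For these 3 genes the libraries of E13 and E15 did not overlap, and those of E15 and E17 overlapped for Hba-a1 and not for Hbb-bs and Hbb-bt. With 2 libraries an age this says little. Slc4a1 and Hemgn did not overlap between E13 and E15 either, with unadjusted p of 0.617 and 0.622 in limma. The share of all genes without overlap was not counted. Both E13 libraries and E15 replicate 1 listed Hba-a2 at 0, and E15 replicate 2 at 0.141 FPKM. It reached 90.1 and 167 FPKM at E17, far above every earlier library.

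Of the adult globins, 1 was called higher at E15 than at E13, beside 11.9% of all genes. It was Hbb-bs, with a log2 change of 2.58 (SE 0.798, adjusted p = 0.0297), and the call was lost when any 1 of the 4 libraries was left out (adjusted p 0.0510 to 0.202). Hbb-bt changed by 1.77 (95% interval 0.28 to 3.26, adjusted p = 0.0794) and Hba-a1 by 1.66 (0.17 to 3.15, adjusted p = 0.0994). From E15 to E17, Hba-a2 rose by 6.86 on the log2 scale (SE 0.733, adjusted p = 7.88e-06). Hbb-bs, Hbb-bt and Hba-a1 changed by 1.55, 1.18 and 0.62 over that step and did not pass the test. Since 89.3% of the words of Hba-a2 are shared with Hba-a1, the pair was also summed, an alternative chosen after the values were seen. The sum changed by 0.87 from E15 to E17 (adjusted p = 0.368), so the appearance of adult alpha globin as a whole was not called at that step. From E13 to E15 the alpha sum changed by 1.66 (adjusted p = 0.102). The beta pair, summed likewise, rose by 2.09 over that earlier step (adjusted p = 0.0489).

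At P0 the libraries parted. P0 replicate 1 had 129 FPKM of Hba-a1, 70.8 of Hba-a2, 209 of Hbb-bs and 124 of Hbb-bt, and P0 replicate 2 had 938, 493, 1484 and 873. Replicate 2 was higher 7.28-, 6.96-, 7.10- and 7.03-fold, nearly the same ratio for each adult globin. At E17 the ratios of replicate 2 to replicate 1 were 2.09, 1.86, 2.15 and 2.00 in the same order. At both ages the 4 adult globins thus kept nearly the same proportions in libraries that differed in amount. None of them was called by limma between P0 and E17, where 7.86% of all genes were higher and 8.91% lower (adjusted p 0.434 to 0.816).

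From P3 on the summed adult globins lay below the levels of E15, E17 and P0, and from P7 on also below that of E13. The 4 genes summed to 533 and 3788 FPKM at P0, 269 and 192 at P3, 91.3 and 114 at P7, 80.3 and 28.4 at P14, and 73.1 and 68.2 at P21. In grown animals the sum was 9.64 and 8.03 FPKM at P60, 4.90 and 7.63 at Y1, and 14.7 and 37.5 at Y2. The libraries of P0, P3 and P7 do not overlap in this order, and those of P14 do not separate from those of P21. Both Y2 libraries lie above those of P60 and Y1. With 2 libraries an age this says little, and the share of all genes without overlap was not counted. From Y1 to Y2 neither summed pair was called by limma (adjusted p = 0.175 for alpha and 0.0856 for beta). From P0 to P3, with 11.2% of all genes called lower, Hba-a2 fell by 7.47 (adjusted p = 4.43e-06), Hbb-bs by 3.52 (adjusted p = 0.00531) and Hbb-bt by 2.12 on the log2 scale (adjusted p = 0.0401). Hba-a1 changed by -1.73 (95% interval -3.22 to -0.24, adjusted p = 0.0885), while the summed alpha pair fell by 2.35 (adjusted p = 0.0254) and the summed beta pair by 2.84 (adjusted p = 0.0107). The calls of Hbb-bs and Hbb-bt were lost without P0 replicate 2 (log2 -2.11 and -0.72, adjusted p = 0.0736 and 0.441), and in a fit of these 2 ages alone (adjusted p = 0.119 and 0.256). The Hbb-bt call was also lost without either P3 library (adjusted p = 0.0849 and 0.197), with no filter on low values (0.0642) and after quantile normalization (0.0505).

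From P21 to P60, the span that holds puberty, Hba-a1 fell by 3.11 and Hbb-bt by 2.77 on the log2 scale (adjusted p = 0.00732 and 0.0154), and Hbb-bs changed by -1.98 (adjusted p = 0.131). The Hbb-bt call was lost without any 1 of the 4 libraries, and that of Hba-a1 without P21 replicate 1 or P60 replicate 2 (adjusted p = 0.0515 and 0.0651). The near-identical pairs when summed were both lower at P60, by 3.09 for alpha (adjusted p = 0.00809) and 2.52 for beta (adjusted p = 0.0317). After birth Hba-a2 was near 0 at some ages and well above it at others. It was at 0.126 and 0 FPKM at P3, 2.90 and 0.0600 at P7, 7.07 and 4.33 at P14, 0 and 0.192 at P21, and 2.10 and 8.01 at Y2. Its ratio to Hba-a1 was 0.550 and 0.526 at P0, 0.461 and 0.577 at P14 and 0.743 and 0.807 at Y2, against 0 to 0.0751 in the libraries of P3, P7, P21, P60 and Y1. Hba-a2 was called lower at P21 than at P14 (log2 -2.59, adjusted p = 0.0170) and higher at Y2 than at Y1 (2.28, adjusted p = 0.0382), while the sum of the pair was not called at either step (adjusted p = 0.365 and 0.175). The first call was lost without P14 replicate 1 or either P21 library, and the second without Y2 replicate 2 or either Y1 library. How reads were divided between the copies was not tested.

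Read as a switch, beta-like globin turned over from mostly embryonic to almost wholly adult within 4 days of gestation. Hbb-y and Hbb-bh1 made up 89.3% and 85.8% of summed beta-like FPKM at E13, 34.1% and 25.5% at E15, and 0.169% and 0.177% at E17. At P0 the share was 0.0592% and 0.0116%. On the alpha side Hba-x made up 40.6% and 40.7% at E13, 6.54% and 4.64% at E15, 0.165% and 0.0534% at E17, and 0 at P0. At E13 and E15 the embryonic share was higher in the beta-like than in the alpha-like genes in all 4 libraries, and the libraries of an age lay closer to each other than to those of the next age. At E17 the beta-like share was still the higher one in both libraries, by little in replicate 1. Each share is a ratio within 1 library over summed pairs. The split of reads within an adult pair still enters it, because FPKM divides by transcript length. The main transcripts of Hba-a1 and Hba-a2 have 699 and 554 bases, and those of Hbb-bs and Hbb-bt 628 and 703. How reads common to both copies were counted is not known, and it bears on both shares and on their comparison. The E17 libraries held 1449 and 3001 FPKM of adult globin and had nearly the same beta-like share, while their alpha-like shares differed 3.09-fold. The embryonic part of the beta-like share at E17 rests mainly on about 13.4 and 21.1 reads of Hbb-y. The likeness of this share between the E17 libraries, and its rank over the alpha-like share in replicate 1, therefore say little.

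**Figure D2:**
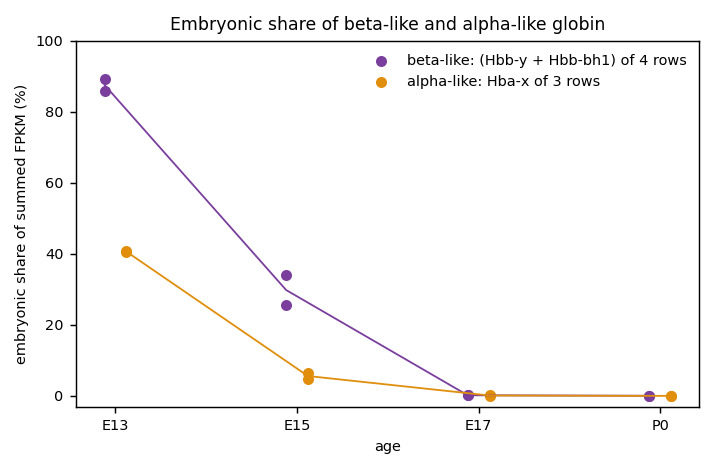
Embryonic share of summed beta-like globin FPKM (purple, Hbb-y plus Hbb-bh1 of 4 genes) and of summed alpha-like globin FPKM (orange, Hba-x of 3 genes) in percent, for E13 to P0, with 1 point per library and a line through the means. The beta-like points fall from 89.3% and 85.8% to under 0.2%, and the alpha-like points start lower, at 40.6% and 40.7%.

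Alpha-like FPKM was lowest relative to beta-like FPKM at E13. Alpha-like FPKM was 0.226 and 0.217 of beta-like FPKM at E13, 0.501 and 0.686 at E15, 0.566 and 0.555 at E17 and 0.599 and 0.607 at P0. The E13 ratio lay below that of all other libraries, of which the lowest was 0.387 in P14 replicate 1. With the embryonic globins left out, adult alpha FPKM was 1.25 and 0.906 of adult beta FPKM at E13. Within adult beta globin the order of the copies also turned between E15 and E17. Hbb-bs was 0.347 and 0.760 of Hbb-bt at E13, 0.938 and 0.893 at E15, 1.14 and 1.23 at E17 and 1.68 and 1.70 at P0. After birth the ratio was 0.621 and 0.644 at P3 and varied between 0.698 and 2.46 from P7 on, with libraries of one age on either side of 1 at P7, P14 and Y2. The share of words common to both copies bears on these values. Words common to Hba-a1 and Hba-a2 likewise bear on the ratio of alpha-like to beta-like FPKM. Differences in sequence between these outbred animals and the reference were not tested.

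Slc4a1 and Hemgn were highest at E17 and P0, except that Slc4a1 in P0 replicate 1 was no higher than at E13. Slc4a1 was at 2.21 and 2.54 FPKM at E13, 0.852 and 1.74 at E15, and 33.0 and 162 at E17. At P0 it was at 2.21 FPKM in replicate 1 and 148 in replicate 2, and from P3 on at 0.720 or less. Hemgn was at 0.0570 and 0 FPKM at E13, 0.114 and 0.447 at E15, 15.5 and 74.8 at E17, and 8.22 and 42.9 at P0, and from P3 on at 0.150 or less. Both genes rose from E15 to E17, Slc4a1 by 5.05 (SE 1.14, adjusted p = 0.00334) and Hemgn by 4.80 (SE 0.604, adjusted p = 3.39e-05) on the log2 scale. From E17 to P0 neither was called (log2 -1.77, 95% interval -4.20 to 0.67, for Slc4a1 and -0.81, -2.11 to 0.48, for Hemgn). From P0 to P3, Slc4a1 fell by 3.78 (adjusted p = 0.0266) and Hemgn by 4.20 (adjusted p = 0.000162). The Slc4a1 call was lost without P0 replicate 2, where the change was -1.01 (adjusted p = 0.261), and without either P3 library, while that of Hemgn held in each of these fits and was lost with P0 and P3 fitted alone (adjusted p = 0.0599).

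**Figure D3:**
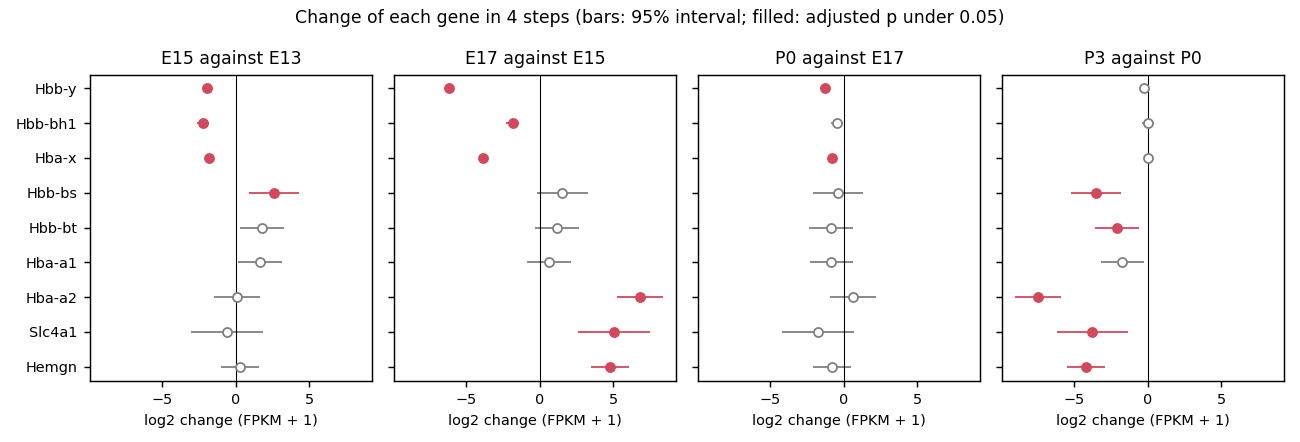
Log2 change of FPKM + 1 for each gene in 4 successive steps, with 95% intervals and filled points where the adjusted p was under 0.05. Embryonic globins are left of 0 and filled in the first 2 panels, Hba-a2, Slc4a1 and Hemgn are right of 0 in the second, and the last panel has 5 filled points, all to the left.

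Set against adult globin, the red cell membrane gene varied widely. Slc4a1 was at 9.43 and 9.49 FPKM per 1000 FPKM of adult globin at E13, 1.14 and 1.51 at E15, 22.8 and 54.1 at E17, and 4.15 and 39.2 at P0, and at 7.04 or less later. The E13 ratio has embryonic globin left out of its denominator. Both E17 libraries and P0 replicate 2 thus held more Slc4a1 for their globin than any other library, and P0 replicate 1 did not. Hemgn relative to Slc4a1 was 0.469 and 0.461 at E17 and 0.289 in P0 replicate 2, but 3.72 in P0 replicate 1. Replicate 2 exceeded replicate 1 at P0 5.22-fold in Hemgn, 6.96- to 7.28-fold in the adult globins and 67.1-fold in Slc4a1.

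**Figure D4:**
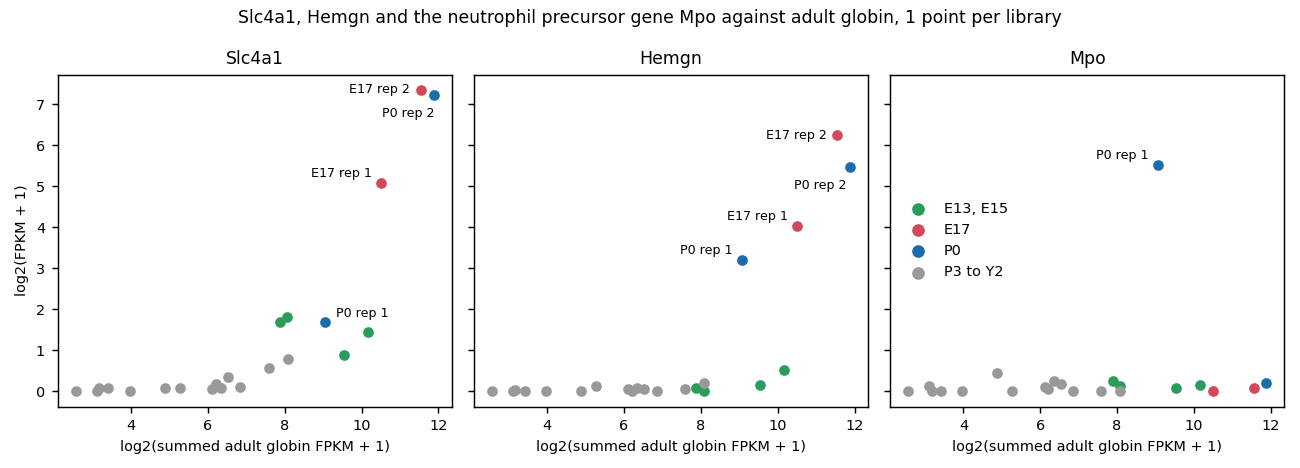
Slc4a1, Hemgn and the neutrophil precursor gene Mpo as log2(FPKM + 1) against the summed adult globins on the same scale, with 1 point per library coloured by age. P0 replicate 1 has Hemgn at 8.22 FPKM with Slc4a1 at 2.21 FPKM, and is the one library with Mpo above 1 FPKM, at 44.9 FPKM.

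Counted over the 9 genes, all of which passed the filter on low values, the steps differed as follows. Over all ages the F test called 9 of 9 genes, beside 88.1% of all 16117 genes tested. From E13 to E15, 1 gene was higher and 3 were lower, beside 11.9% and 12.3% of all genes. From E15 to E17, 3 were higher and 3 lower (18.8% and 15.6%), and from E17 to P0 none was higher and 2 were lower (7.86% and 8.91%). From P0 to P3 none was higher and 5 were lower (12% and 11.2%), or 2 without P0 replicate 2 and 3 without either P3 library. The fetal and birth steps therefore hold most of the calls. From P3 on the embryonic globins, Slc4a1 and Hemgn lay under 1 FPKM, so a further fall on this scale had little room to be called. The SE of the adult globins, 0.694 to 0.798 at every step, is pooled over all ages and includes the spread between the P0 libraries. No gene was called by limma from P3 to P7, from P7 to P14 or from P60 to Y1, where 16.8%, 3.7% and 14.4% of all genes were called in either direction, and 1, 2 and 0 of the 9 had an unadjusted p under 0.05. From P14 to P21, 1 was lower (17.7%), from P21 to P60, 2 were lower (6.7%), and from Y1 to Y2, 1 was higher (12.1%). Between E13 and P60, 6 genes were lower and none higher, beside 30.5% and 24.2% of all genes. They were the 3 embryonic globins, Hba-a1 (log2 -5.08), Hbb-bs (-3.15) and Hbb-bt (-4.63). Without P0 replicate 2 the P0 and E17 libraries gave 6 calls, the added ones being Hba-a1, Hbb-bt, Slc4a1 and Hemgn, and 4 without E17 replicate 1.

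Many other genes of red cell development rose from E15 to E17 and fell from P0 to P3, as Slc4a1 and Hemgn did. Of 17 genes of the red cell membrane and its skeleton, 12 rose from E15 to E17 and none fell. Over all genes tested, 18.8% were called higher and 15.6% lower. The median log2 change of the list was 2.55 beside 0.02 over all genes tested. Rhd, a Rh blood group protein, was at 0.172 and 0.802 FPKM at E15, 10.4 and 46.5 at E17, 7.12 and 26.2 at P0 and 3.16 and 2.72 at P3. It rose by 4.001 from E15 to E17 (adjusted p = 6.63e-05), and Aqp1, the water channel, which blood vessels also express, was not called. From E17 to P0, 1 of the 17, Xk, fell, beside 8.91% of all genes. From P0 to P3, 14 fell and none rose, beside 11.2% and 12% of all genes (median -1.84, all genes -0.01). Among the 14 was Rhag, a Rh-associated membrane protein, at -3.72. The count of 14 was 5 without P0 replicate 2, and 7 and 6 without P3 replicate 1 and 2.

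Genes of heme synthesis and iron uptake showed the same rise. From E15 to E17, 13 of 16 rose and none fell, beside 18.8% and 15.6% of all genes, with a median of 1.32. Alas2, the red cell form of the first enzyme of heme synthesis, was at 7.66 and 11.1 FPKM at E15, 35.7 and 101 at E17, 10.7 and 146 at P0 and 9.22 and 6.48 at P3, and rose by 2.58 from E15 to E17 (adjusted p = 0.0205). Cpox, a later enzyme of the pathway, rose by 2.14. The most abundant gene of the list, Alad, was not called at this step and fell from E17 to P0 (log2 -1.26). From P0 to P3, 5 fell, led by Cpox (-1.92), and 1 rose, Steap3 (0.94), a ferric reductase. Of all genes, 11.2% were lower and 12% higher at this step. Without E17 replicate 2 the 13 calls at E17 became 4, and the 6 calls at P3 became 13 without P0 replicate 1 and 3 without P0 replicate 2.

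Among 13 transcription factors of the globin switch and of red cell development, 6 rose from E15 to E17 and none fell. Of all genes, 18.8% were higher and 15.6% lower. The median change of the list was 0.73. Klf1, which activates adult beta globin, was at 0.737 and 2.07 FPKM at E15, 8.38 and 37.3 at E17, 14.5 and 21.9 at P0 and 0.301 and 0.349 at P3, and rose by 3.04 (adjusted p = 0.000143). Gata1, the master factor of red cell genes, rose by 2.65. Bcl11a, which silences embryonic beta-like globin in mouse red cells, was at 0.690 and 0.689 FPKM at E15 and 0.494 and 1.11 at E17. It was not called at that step. The P0 libraries did not part in this list as they did in Slc4a1. On FPKM + 1, 0 of the 13 were at least 2-fold higher in P0 replicate 2 and 1 was at least 2-fold lower. Of the 17 membrane genes, 13 were at least 2-fold higher there, beside 1.29% of all genes. From P0 to P3, 10 of the 13 fell and none rose, beside 11.2% and 12% of all genes, led by Klf1 (-3.83) and Gata1 (-3.18). Of 15 other red cell proteins in the table, 12 rose from E15 to E17 and none fell, led by Trim10 (3.54) and Car2 (3.33), a carbonic anhydrase. From P0 to P3, 9 of the 15 fell. The shares over all genes at these steps are those just given. Without E17 replicate 2, 4 of these 15 were called at E17. From E13 to E15, 0 of 16 heme genes and 1 gene each of the other 3 lists were called. Of all genes, 11.9% were higher and 12.3% lower at that step. The heme list had 2 genes with an unadjusted p under 0.05 in limma.

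Neutrophil genes also changed at these ages. Neutrophil genes summed to 4.44 to 8.44 FPKM at E13 and E15, 75.4 and 12.5 at E17, 230.0 and 207 at P0 and 2.52 to 12.4 from P3 to P21. The 2 P0 libraries were alike in this sum and unlike in its genes. Mpo and Elane, granule enzymes of neutrophil precursors, were at 44.9 and 49.6 FPKM in P0 replicate 1 and at 0.162 and 0.130 in replicate 2, while Retnlg, a gene of mature neutrophils, was at 0.322 and 33.1. Myb, a factor of blood progenitors, was at 8.42 and 1.10 FPKM in the same libraries. At E17 replicate 1, the library lower in Slc4a1, was the higher one in Ngp (19.8 and 2.58) and S100a9 (33.6 and 5.69). Of 8 tested neutrophil genes, 4 rose from E15 to E17, 4 from E17 to P0, and 6 fell from P0 to P3. The shares over all genes were 18.8%, 7.86% and 11.2%. The first count was 0 without E17 replicate 1, 1 without E15 replicate 1 and 2 without E15 replicate 2, and the second was 0 without E17 replicate 2.

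Liver genes at E17 and P0 were higher in the library richer in red cell RNA. Alb, serum albumin, was at 1.61 and 11.2 FPKM at E17 and 4.20 and 27.3 at P0, and Afp, alpha-fetoprotein of the fetal liver, at 0.537 and 4.19 and at 0.351 and 5.40. The list of 11 liver genes summed to 8.69 and 34.2 FPKM at E17 and 13.8 and 72.2 at P0. Alb was also at 15.2 FPKM in P14 replicate 2 and 17.7 in Y2 replicate 1, which were not the libraries richer in adult globin at those ages. None of the 9 tested liver genes was called by limma from E15 to E17, from E17 to P0 or from P0 to P3. At these steps 1, 0 and 1 had an unadjusted p under 0.05. Of all genes, 18.8%, 7.86% and 12% were called higher and 15.6%, 8.91% and 11.2% lower. Platelet genes summed to 3.20 to 3.70 FPKM at E17 and 11.8 to 13.6 at P0. Of 10 genes of blood vessel endothelium, 4 fell from E15 to E17, beside 15.6% of all genes, and 5 rose from E17 to P0, beside 7.86% (3 were called without P0 replicate 2). The list summed to 87.5 and 87.8 FPKM at E17 with none of its genes at 0. No endothelial gene was called higher where red cell genes rose, at E17, beside 18.8% of all genes. The part of neighbouring tissue, of blood content and of white cells in the red cell results was not tested.

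**Figure D5:**
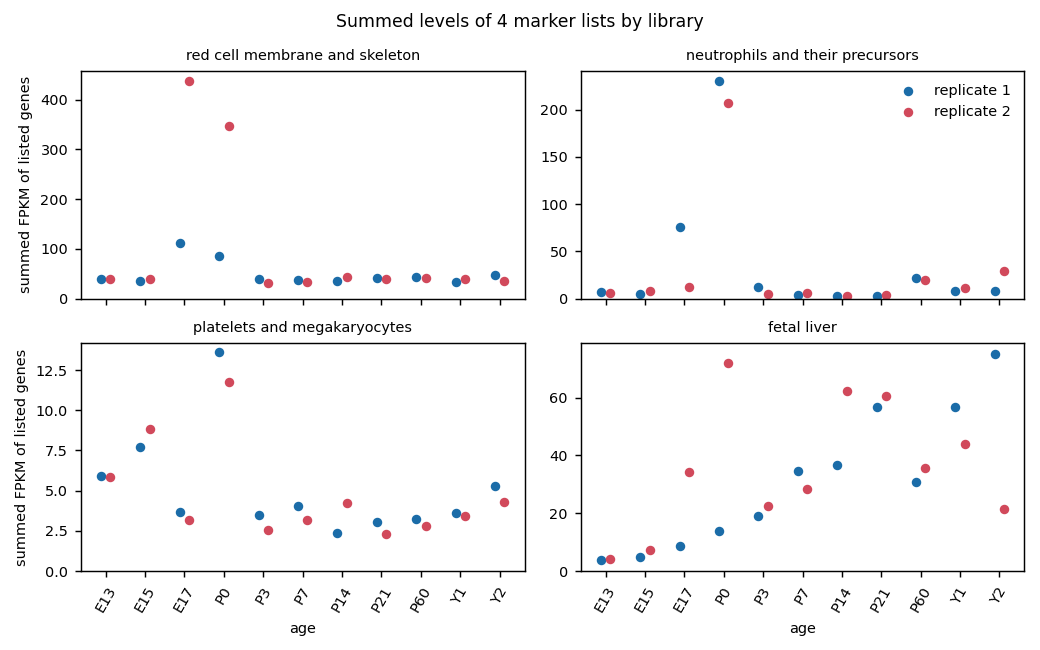
Summed FPKM of 4 marker lists by age, with 1 point per library (blue, replicate 1; red, replicate 2) and an axis of its own for each list. Red cell membrane genes and liver genes are higher in replicate 2 at E17 and P0, and neutrophil genes reach 230.0 and 207 FPKM at P0.

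Across the 22 libraries, the genes most like each globin set differed. By Pearson correlation of log2(FPKM + 1), Hbb-y was most like Foxd1 (r = 0.989), Stra8 (0.983), Chd5 (0.982), Cldn6 (0.980) and Lmx1a (0.978). Stra8, which is needed for entry into meiosis, was at 38.0 and 41.9 FPKM at E13 and at 0.0587 and 0.0915 at E17. For Hbb-bs the closest genes were Gypc (0.948), a red cell membrane gene that other cells express too, Gm14692, Gm1140, Sycp1 and Zfp541 (0.926 to 0.940). Sycp1, part of the synaptonemal complex of meiotic chromosomes, peaked at 85.0 and 84.2 FPKM at E17 with libraries that did not differ as those of Hbb-bs did. For Slc4a1 the genes named are Kel (0.976), a blood group protein, and Trim10 (0.976), followed by Samd11 and Gfap (0.968 and 0.967). The points share age, and the libraries at or near 0 weigh on each value.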

How the data were processed

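Total RNA of 22 whole-ovary libraries was sequenced. The authors deposited one table of FPKM values per gene, made with HISAT2, StringTie and edgeR on mm10 per the submitters' processing notes, whereas the series' design text names TopHat; no source used here gives their versions or settings. FPKM values carry no counts, so no count test was the main test. The fit took the 16117 of 34745 genes that reached 1 FPKM in 2 or more libraries and was made on log2(FPKM + 1) with limma 3.58.1 (R 4.3.3), using lmFit and a trended eBayes, age as 11 levels, 11 residual degrees of freedom and Benjamini-Hochberg adjustment within each comparison at 0.05. The script was tested on simulated data. Shares and ratios are of summed FPKM.

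The members and the gene lists were chosen with earlier results of these data known. Each member is given in every library or by range. From each list the 2 genes of highest level and up to 2 called genes with the largest change could be named, and genes that check a cell type by value. The 5 genes most like Hbb-y, Hbb-bs and Slc4a1 are named by correlation. One red cell membrane gene that these rules would name is not reported here.

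Depth was estimated from single-transcript genes under 0.2 FPKM. Of 1158 to 1444 such values per library, 94.5% to 97.1% were whole reads within 0.02. One FPKM of Hbb-y is 7.27 to 11.5 reads, and read numbers cover counting error only. Replicate numbers come from sample titles. Over 55 pairs of ages, same-numbered libraries' deviations correlated at -0.129 to 0.265 (median -0.003, 1 pair over 0.1), so numbers do not pair the libraries. Alternatives were another pseudocount, other filters and scalings, no trend, a replicate block, each library left out and each pair of ages alone. Sequence identity used GENCODE vM21 transcripts, and promoters RefSeq. Hbb-bh1 and Slc4a1 promoters are not used here.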

Additional observations from a re-analysis of the deposited data

How the results depend on the processing

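No result reversed. The F test called 9 of 9 genes under every alternative, the E15 against E13 and P60 against E13 counts and the count of 6 at E17 against E15 stayed within 1.5 times, and the embryonic shares of single libraries ranged as printed in the text. Fits of only the 2 ages compared gave 0 calls for P0 against E17, 1 for P3 against P0, 2 for P7 against P3 (Hba-a1 and Hbb-bt) and 0 for Y2 against Y1. The Y2 against Y1 count was 2 with a pseudocount of 0.1, 0 with no filter on low values and 0 after quantile normalization. With 1 library left out, the counts ranged from 2 to 6 for P0 against E17, 2 to 6 for P3 against P0, 0 to 1 for P21 against P14, 0 to 1 for P60 against P21 and 0 to 2 for Y2 against Y1, the lone library of an age being assumed to vary like the others. Named log2 changes refitted with a library left out kept their call in 85 cases and lost it in 23; in the fits of 2 ages 19 kept it and 8 lost it. Slc4a1 at P3 was called without P0 replicate 1, and lost the call without P0 replicate 2. With E15 and E17 fitted alone, 0 transcription factor genes, 2 heme genes, 2 membrane genes and 3 other red cell genes were called. The cause was not tested.

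The replicate block, with the replicate number as a term, gave 2 calls for P0 against E17 and 5 for P3 against P0 and changed no call of a named gene; the numbers do not pair the libraries. Rescaling to the FPKM total without these 9 genes and the mitochondrial genome moved the median of all genes to 0.10 (log2) at E17 against E15 and -0.12 at P60 against E13 and changed no call of a named gene. With 2 libraries an age, a low globin at or near 1 to 4 reads, as for Hbb-y from P0 on, is set by counting error.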

Other observations

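Cytoglobin and the heavy chain of ferritin were higher at P60 than at E13, where 6 of the 9 globin and red cell genes were lower. Cygb, a globin of connective tissue cells that red cells do not use, was at 18.8 and 17.7 FPKM at E13, 37.7 and 39.1 at P0, 67.0 and 66.3 at P3 and 88.7 and 102 at Y1. It was higher at P60 than at E13 by 2.18 on the log2 scale (adjusted p = 9.85e-09) and also rose from P0 to P3 (0.78, adjusted p = 0.000975), and was lower at Y2 than at Y1 (-0.46, adjusted p = 0.0284). Of the other red cell globins, Hbq1b, a theta globin, was at 1.12 and 5.09 FPKM at E17 and 0.0521 and 6.24 at P0, with the same higher library as Slc4a1 at both ages. Hbb-bh0 was listed above 0 at 0.584 and 0.673 FPKM at E13 and 1.75 in E15 replicate 1, and at 0 elsewhere. Hbb-bh2 was listed at 0 in all 22 libraries.

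Of 9 tested genes of hemoglobin and iron clearance, 6 were higher and none lower at P60 than at E13, beside 24.2% and 30.5% of all genes tested, with a median log2 change of 0.52 beside -0.06 over all genes. Fth1, the heavy chain of ferritin, was at 497 and 501 FPKM at E13, 1608 and 1645 at P60 and 2049 and 1643 at Y2. It rose by 1.70 between E13 and P60 (adjusted p = 3.57e-08). From Y1 to Y2 Fth1 rose by 0.43 (adjusted p = 0.0218), while Ftl1, the light chain, fell by 0.74 (adjusted p = 0.0441). Hmox1, the enzyme that opens the heme ring, was at 16.6 and 20.4 FPKM at E17, 40.6 and 81.1 at P0 and 30.3 and 30.7 at P3. It rose from E17 to P0 (1.59, adjusted p = 0.00125) and fell from P0 to P3 (-0.89, adjusted p = 0.0265). Spic, a factor of macrophages that clear red cells, was at 0.0748 and 0.0518 FPKM at E13 and at 1.42 and 1.15 at Y2.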
